A study of Mus musculus with 11 samples.

Results

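Cohesin is a ring of protein that holds DNA, and the genes described here are those of its subunits, its loading and release factors, its regulatory subunits and Ctcf, the DNA-binding protein at which cohesin commonly halts. The 10 genes were taken by symbol from tables of neonatal liver haematopoietic stem cells (HSCs), and all were found among the 24064 genes of the gated tables and in the unfractionated ones. They are Smc1a, Smc3, Rad21, Stag1, Stag2, Nipbl, Wapl (listed in the files under its older symbol Wapal), Pds5a, Pds5b and Ctcf. Smc1a, Smc3 and Rad21 encode the ring itself, and a STAG protein, made from Stag1 or Stag2, sits on it. Nipbl encodes the loader that works with Mau2, Wapl the factor that releases the ring from chromatin, and Pds5a and Pds5b the regulatory subunits that bind both Wapl and the acetyltransferases that lock the ring. In dividing cells cohesin keeps sister chromatids together until anaphase, and in interphase it extrudes chromatin loops whose bases often lie at Ctcf sites.

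The cells were wild-type C57BL/6 HSCs sorted from livers at postnatal day 0 as lineage-negative, Sca1 and cKit positive, CD150 positive and CD48 negative, and 100 to 200 of them went into each Smart-seq2 library. Smart-seq2 makes full-length cDNA from very small inputs and does not keep the strand. Libraries numbered 4 for cells of high forward scatter area (FSC-A High), 3 for cells of low area (FSC-A Low) and 4 for HSCs without a scatter gate in their labels (unfractionated). Forward scatter area is a cytometer reading that rises with cell size, and the comparison of the gated groups addresses how transcripts differ with it. Whether replicates are separate animals is not stated, and the p-values here reflect only the spread between libraries, which may be technical.

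Depths were 65.7 M to 85.2 M reads in FSC-A High, 69.4 M to 98.2 M in FSC-A Low and 21.3 M to 30.9 M in the unfractionated libraries. The gated values are taken as RPKM, reads per kilobase of transcript scaled to sequencing depth. No header names the unit, and fragments could not be told from reads. All 7 HSC markers were found in the gated libraries, with summed levels of 180 to 275 RPKM in FSC-A High and 374 to 501 RPKM in FSC-A Low. Cd48, sorted against, stood at 0.0822 to 3.32 RPKM in FSC-A High and 0.946 to 1.75 RPKM in FSC-A Low. The 4 hepatocyte markers summed to 11.3 to 15.7 RPKM in FSC-A High and 7.25 to 16.3 RPKM in FSC-A Low, and the 4 macrophage markers to at most 1.81 and 2.03 RPKM in those groups. Of the erythroid markers, the globin gene Hbb-bt stood at 85.0 to 218 RPKM in FSC-A High and 52.9 to 79.8 RPKM in FSC-A Low. Hba-a1 and Alas2 reached at most 0.42 and 0.102 RPKM in FSC-A High, and 0.845 and 0.427 RPKM in FSC-A Low. The endothelial, B cell and granulocyte markers summed to at most 2.29, 0.431 and 9.48 RPKM in FSC-A High and 1.16, 0.429 and 12.0 RPKM in FSC-A Low, and the megakaryocyte markers to 61.2 to 95.8 RPKM in FSC-A High and 46.2 to 59.1 RPKM in FSC-A Low. The part of these differences in the results below was not tested. In bulk libraries a smaller share of cells that express a gene and less RNA of it per cell cannot be told apart.

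Between the gated groups, Ctcf was the member that passed the test, and it was lower in FSC-A High. Smc1a and Smc3 were the most abundant members in both groups and differed little or in the upward direction. Stag1 and Wapl also had all FSC-A High libraries below all FSC-A Low libraries, without passing the test. By limma on log2(RPKM + 1), with p-values adjusted by the Benjamini-Hochberg method over the 10619 genes that reached 1 RPKM in 3 or more libraries, which include all 10 members, 1 member passed at 0.05, while 27.3% of all genes tested did. In the lower direction that was 1 member, against 11.7% of all genes, and in the higher direction 0 members, against 15.6%. In 4 members the groups showed no overlap of libraries, 3 lower and 1 higher in FSC-A High, against 34.9% of all genes (16.0% lower and 18.9% higher). With only 10 members, these shares do not set the members apart from the genes tested as a whole. The share of genes called also varied with transcript length, as given below, and the members are long. The median log2 difference of the members was -0.10, beside -0.04 over all genes tested.

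Ctcf encodes a zinc finger protein that marks loop bases and domain borders. It stood at 4.15, 5.07, 7.84 and 4.03 RPKM in the FSC-A High libraries 1 to 4, against 9.94, 11.8 and 11.1 RPKM in the FSC-A Low libraries 1 to 3. Every FSC-A High library lay below every FSC-A Low library, and the third FSC-A High library came nearest to them. The means were 5.27 ± 1.77 RPKM in FSC-A High (SD, n = 4), against 10.9 ± 0.925 RPKM in FSC-A Low (SD, n = 3), which gave a log2 difference of -0.97 (SE 0.29, 95% interval -1.60 to -0.33, limma adjusted p = 0.0271). Its transcript (NM_181322) has a length of 3823 nt, recovered from the authors' values, and the gene spans chr8:105636474-105682922 on mm10. Exons of Agrp and Gm5914, on the opposite strand, overlap Ctcf by 114 and 235 nt, and unstranded reads there cannot be assigned. Agrp averaged 0.461 RPKM over the 7 gated libraries, and Gm5914 was not analysed here. The call was kept when the third FSC-A High library or the first FSC-A Low library was left out (log2 difference -1.14 and -1.03, adjusted p = 0.0202 and 0.0495) and lost when any of the other 5 was, at log2 differences of -0.96 to -0.87 (adjusted p = 0.057 to 0.0723). It was also lost with the trend of the differences over transcript length removed, described below (-0.61, limma adjusted p = 0.189), and after removal of the trend over level (-0.80, adjusted p = 0.0691).

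The sequence before the RefSeq promoter table's start of Ctcf is shown with that of Smc1a because these were the members with the smallest p-values, in opposite directions. Both are the 250 bases before that table's start on GRCm38.p6, on the plus strand, at chr8:105636288-105636537 for Ctcf and chrX:152016178-152016427 for Smc1a. For Ctcf the start in that table lies inside the gene span given above, so the stretch runs past the first base of the span. The same holds for Pds5b, and the stretches of Stag1 and Wapl lie wholly inside the spans given below. Motif distances are counted from the start in the table. Capitals mark the matches to 6 short motifs searched on both strands.
Ctcf: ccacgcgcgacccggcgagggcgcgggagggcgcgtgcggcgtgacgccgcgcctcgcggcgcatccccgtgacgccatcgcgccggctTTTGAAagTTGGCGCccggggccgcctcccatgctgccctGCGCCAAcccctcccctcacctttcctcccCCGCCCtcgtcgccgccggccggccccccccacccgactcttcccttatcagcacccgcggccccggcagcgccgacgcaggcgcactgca
Smc1a: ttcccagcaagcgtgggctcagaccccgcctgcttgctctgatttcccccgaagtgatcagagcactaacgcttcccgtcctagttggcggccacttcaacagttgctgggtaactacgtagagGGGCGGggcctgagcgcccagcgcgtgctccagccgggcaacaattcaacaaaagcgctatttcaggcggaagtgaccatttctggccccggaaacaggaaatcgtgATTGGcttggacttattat
The motifs were the CCAAT box (CCAAT), the cell cycle genes homology region (TTTGAA), the E2F core (TTGGCGC) and its other form (TTCCCGC), the GC box (GGGCGG) and a Yy1 core (GCCATNTT). The Ctcf stretch, of 77.6% G and C, held TTTGAA 161 to 156 bases upstream of the start, TTGGCGC at 153 to 147 bases on the same strand and at 121 to 115 bases on the opposite strand, and a GC box on the opposite strand. The Smc1a stretch, of 56.8% G and C, held a GC box at 126 to 121 bases and a CCAAT box on the opposite strand at 19 to 15 bases. Of 32851 mouse promoters of that length in the RefSeq table, TTGGCGC occurred in 2.0%, TTTGAA in 16.0%, CCAAT in 33.8% and GGGCGG in 32.7%. The table held 7 of the 10 members, and TTGGCGC occurred in Ctcf, Pds5a and Pds5b, while all 7 held a GC box. CCAAT occurred in Pds5b, Smc1a, Stag1 and Wapl, and TTTGAA in Ctcf and Pds5b. The members' stretches held 56.8% to 80.4% G and C, against a median of 52.4% over all promoters. The shares over all promoters were not matched for this. TTCCCGC, in 3.82% of the promoters, occurred in Pds5a and Stag1, and GCCATNTT, in 3.91%, in Pds5b and Stag1. In Pds5a the 2 TTGGCGC matches overlap, and in Pds5b TTGGCGC overlaps GCCATNTT, which overlaps TTTGAA. These matches describe letters and no binding was measured.

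**Figure D1:**
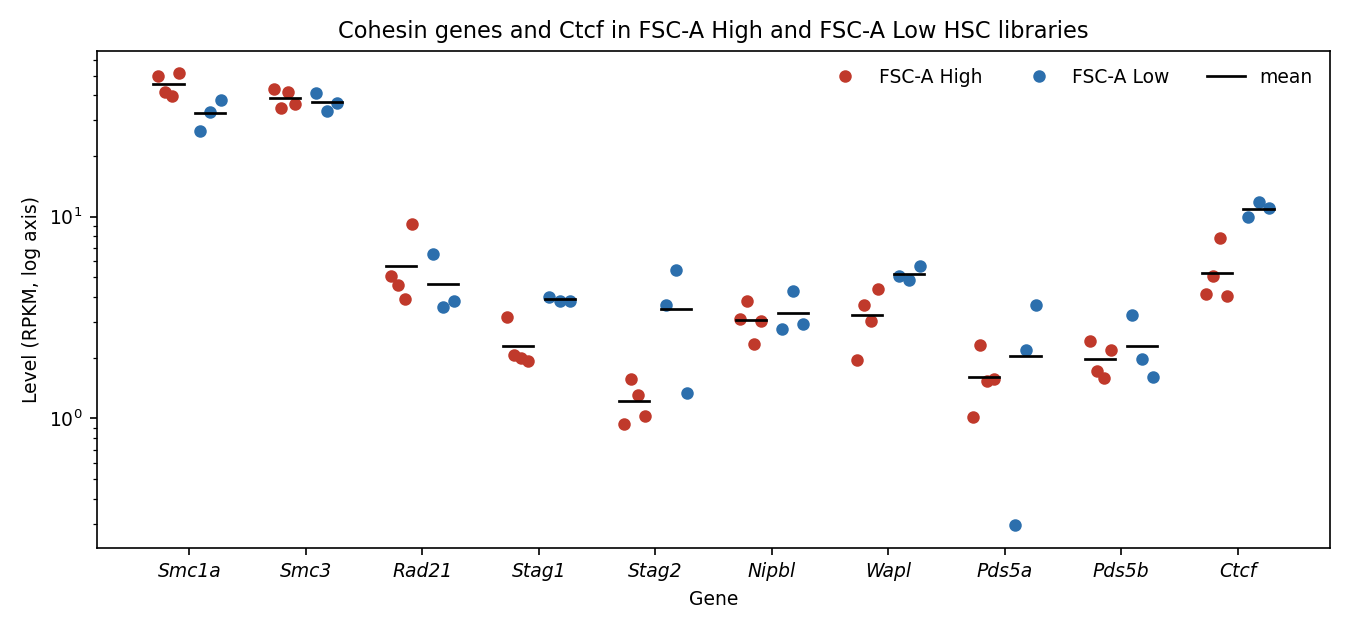
Level of each member in RPKM (log axis) in the 4 FSC-A High and the 3 FSC-A Low libraries, with points for libraries and bars for group means. Smc1a and Smc3 lie above 26 RPKM in every library, Ctcf is lower in every FSC-A High library (4.03 to 7.84 RPKM) than in FSC-A Low (9.94 to 11.8 RPKM), and Pds5a scatters most within FSC-A Low.

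The SMC genes encode the long coiled-coil ATPase arms of the ring. Smc1a stood at 49.9, 41.7, 39.8 and 51.4 RPKM in FSC-A High, against 26.7, 33.0 and 38.1 RPKM in FSC-A Low. All FSC-A High libraries lay above all FSC-A Low libraries, by a narrow gap between the third library of each group. The means were 45.7 ± 5.81 RPKM in FSC-A High (SD, n = 4), against 32.6 ± 5.70 RPKM in FSC-A Low (SD, n = 3), and the log2 difference of 0.48 (SE 0.19, 95% interval 0.07 to 0.89) did not pass after adjustment (limma adjusted p = 0.0787; NM_019710, 3970 nt, chrX:152016428-152061973). Smc3, the partner arm, stood at 43.1, 34.7, 41.6 and 36.3 RPKM in FSC-A High, against 41.1, 33.4 and 36.5 RPKM in FSC-A Low. Its groups overlapped through most of their range, with a log2 difference of 0.07 (95% interval -0.31 to 0.45, limma adjusted p = 0.805; NM_007790, 4851 nt, chr19:53600396-53645831), an interval that leaves out a change of 2-fold in either direction.

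Rad21 encodes the kleisin that closes the ring and that separase cuts at anaphase. It stood at 5.10, 4.58, 3.90 and 9.25 RPKM in FSC-A High, against 6.50, 3.56 and 3.80 RPKM in FSC-A Low. FSC-A High library 4 was the highest of all, the first FSC-A Low library came next, and the groups overlapped (log2 difference 0.23, 95% interval -0.51 to 0.98, limma adjusted p = 0.663; NM_009009, 3605 nt, chr15:51962604-51993538). Without FSC-A High library 4 the log2 difference was 0.01. Per length, Rad21 lay far under its SMC partners in every gated library: its level was 0.118, 0.132, 0.0939 and 0.255 of that of Smc3 in FSC-A High, and 0.158, 0.107 and 0.104 in FSC-A Low.

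The STAG subunits are alternatives for the same position on the ring, Stag1 being known for cohesin at Ctcf sites and telomeres and Stag2 also for cohesin at enhancers away from them. Stag1 stood at 3.17, 2.06, 1.99 and 1.93 RPKM in FSC-A High, against 4.02, 3.84 and 3.84 RPKM in FSC-A Low. Every FSC-A High library was below every FSC-A Low library, the FSC-A Low libraries lay close together, and the first FSC-A High library stood apart from the other 3. The log2 difference of -0.59 (SE 0.30, 95% interval -1.25 to 0.07) did not pass (limma adjusted p = 0.169; NM_009282, 6010 nt, chr9:100597709-100958544). Stag2 stood at 0.938, 1.57, 1.31 and 1.03 RPKM in FSC-A High, against 3.65, 5.42 and 1.34 RPKM in FSC-A Low. The first and second FSC-A Low libraries were above all others, while the third lay within the FSC-A High range, so the groups overlapped. The log2 difference was -0.90 (SE 0.38, 95% interval -1.72 to -0.09) and did not pass (limma adjusted p = 0.0932; NM_021465, 5826 nt, chrX:42149297-42277186). On whole reads recovered from the RPKM values, edgeR's quasi-likelihood test gave Stag2 -1.51 (adjusted p = 0.0428), and it called 2 members, Ctcf and Stag2, both lower, beside 24.2% of all genes (11.4% lower). Leaving out the third FSC-A Low library also brought Stag2 past the threshold in limma (log2 difference -1.31, adjusted p = 0.0205), and leaving out the second took the difference to -0.58. The files hold 3 transcripts of Stag2 that follow each other closely in every library, from which isoforms cannot be separated.

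The Stag1 level divided by the Stag2 level was 3.38, 1.31, 1.52 and 1.86 in FSC-A High, against 1.10, 0.708 and 2.87 in FSC-A Low. The groups overlapped. The log2 ratios of RPKM + 1 averaged 0.56 ± 0.38 in FSC-A High (SD, n = 4), against 0.25 ± 0.74 in FSC-A Low (SD, n = 3). For the difference of 0.31 a two-sided exact permutation test gave p = 0.457, adjusted over 3 ratios 0.686. That test doubles the smaller tail, so with 4 libraries against 3 it cannot give a p below 0.05. None of the 3 ratios could therefore pass, and the test cannot decide whether they differ.

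Nipbl, the loader, stood at 3.10, 3.82, 2.33 and 3.03 RPKM in FSC-A High, against 2.77, 4.29 and 2.94 RPKM in FSC-A Low. The groups overlapped, the second FSC-A Low library being highest (log2 difference -0.09, 95% interval -0.76 to 0.58, limma adjusted p = 0.863; NM_027707, 10216 nt, chr15:8289824-8465315, the longest member). Wapl, which opens the ring, stood at 1.95, 3.66, 3.03 and 4.38 RPKM in FSC-A High, against 5.06, 4.87 and 5.71 RPKM in FSC-A Low. All FSC-A High libraries lay below all FSC-A Low libraries, the first FSC-A High library furthest, and the log2 difference of -0.58 (SE 0.32, 95% interval -1.26 to 0.11) did not pass (limma adjusted p = 0.198; NM_001301330, 6333 nt, chr14:34672379-34747983). The ratio of loader to release factor, Nipbl over Wapl, was 1.59, 1.04, 0.767 and 0.69 in FSC-A High, against 0.548, 0.881 and 0.516 in FSC-A Low. The log2 ratio of RPKM + 1 averaged -0.04 ± 0.40 (SD, n = 4) in FSC-A High and -0.53 ± 0.33 (SD, n = 3) in FSC-A Low. The difference was 0.49 (two-sided exact permutation p = 0.171, adjusted over 3 ratios 0.514), in the test that could not pass with so few libraries.

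Pds5a and Pds5b were low in all gated libraries. Pds5a stood at 1.02, 2.32, 1.54 and 1.56 RPKM in FSC-A High, against 0.295, 2.17 and 3.65 RPKM in FSC-A Low. The FSC-A Low libraries spanned 12.4-fold, from 88 reads in the first, and enclosed the FSC-A High range (log2 difference -0.06, 95% interval -0.97 to 0.86, limma adjusted p = 0.936; NM_001081321, 4146 nt, chr5:65605719-65698236). Opposite-strand exons of annotated transcripts, not analysed here, overlap Pds5a by 146 and 119 nt and Stag2 by 28 nt. Leaving out the first FSC-A Low library gave Pds5a a log2 difference of -0.58 (adjusted p = 0.295), and leaving out the third gave 0.34 (adjusted p = 0.608). Pds5b stood at 2.41, 1.72, 1.58 and 2.17 RPKM in FSC-A High, against 3.27, 1.96 and 1.60 RPKM in FSC-A Low. The groups overlapped, with the first FSC-A Low library highest (log2 difference -0.12, 95% interval -0.82 to 0.58, limma adjusted p = 0.818; NM_175310, 7308 nt, chr5:150673713-150810669). The ratio Pds5a over Pds5b ran between 0.424 and 1.35 in FSC-A High and between 0.0902 and 2.28 in FSC-A Low (exact permutation test, two-sided, p = 0.914, adjusted over 3 ratios 0.914). Fold changes on the log2(RPKM + 1) scale understate those of low genes, and 6 members averaged under 5 RPKM.

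**Figure D2:**
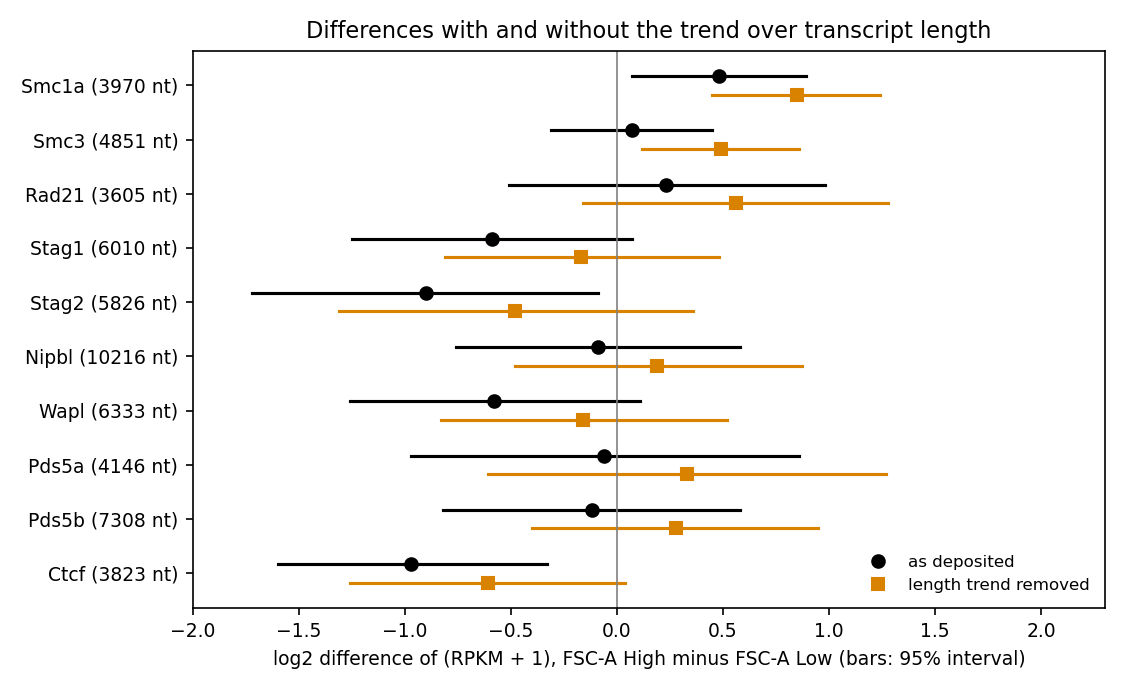
Log2 difference of each member, FSC-A High minus FSC-A Low, with its 95% interval, from limma as deposited and with the length trend removed. As deposited, Ctcf is the member that passes the test (-0.97), and with the trend removed Smc1a is (0.85).

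All 10 members have transcripts longer than the median of the genes tested, 3605 to 10216 nt against a median of 2429 nt, and the gated groups differed along length. The median log2 difference was 0.57 over 1314 genes shorter than 1000 nt and 0.29 over 2805 genes of 1000 to 2000 nt. It was -0.33 over 1715 genes of 3000 to 4000 nt, the class of Smc1a, Rad21 and Ctcf, where 19.0% of genes were called lower and 4.61% higher. It was -0.45 over 1539 genes of 4000 to 6000 nt, the class of Smc3, Stag2 and Pds5a (22.3% called lower), and -0.35 over 625 genes of 6000 nt or more, the class of Stag1, Nipbl, Wapl and Pds5b (11.0% called lower). Stag1, Wapl, Stag2 and Ctcf lay below the median of their class, and the other 6 members above it. Whether length itself or something that goes with it sets this trend was not tested.

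With a spline over length removed within each library, the median of the members was 0.23, beside 0.01 over all genes tested. Smc1a then had a log2 difference of 0.85 (95% interval 0.45 to 1.24, limma adjusted p = 0.00708), and it was the 1 member called, beside 17.2% of all genes (9.85% higher and 7.35% lower). Smc3 reached 0.49 (adjusted p = 0.0665) and Rad21 0.56 (adjusted p = 0.275), while Stag1 moved to -0.17, Wapl to -0.16 and Stag2 to -0.48 (adjusted p = 0.438). Ctcf kept the lowest value among the members, -0.61, with an interval of -1.26 to 0.04. Pds5a, Pds5b and Nipbl stood at 0.33, 0.28 and 0.19, above 0, against -0.06, -0.12 and -0.09 as deposited. Which members are called therefore changes with this correction. Scaling each library to the sum of its gene values, which shifts the median of all genes to -0.30, gave Smc1a 0.18, Smc3 -0.23 and Ctcf -1.24; with it 978 genes were called higher and 2272 lower in FSC-A High, against 1657 and 1245 as deposited.

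**Figure D3:**
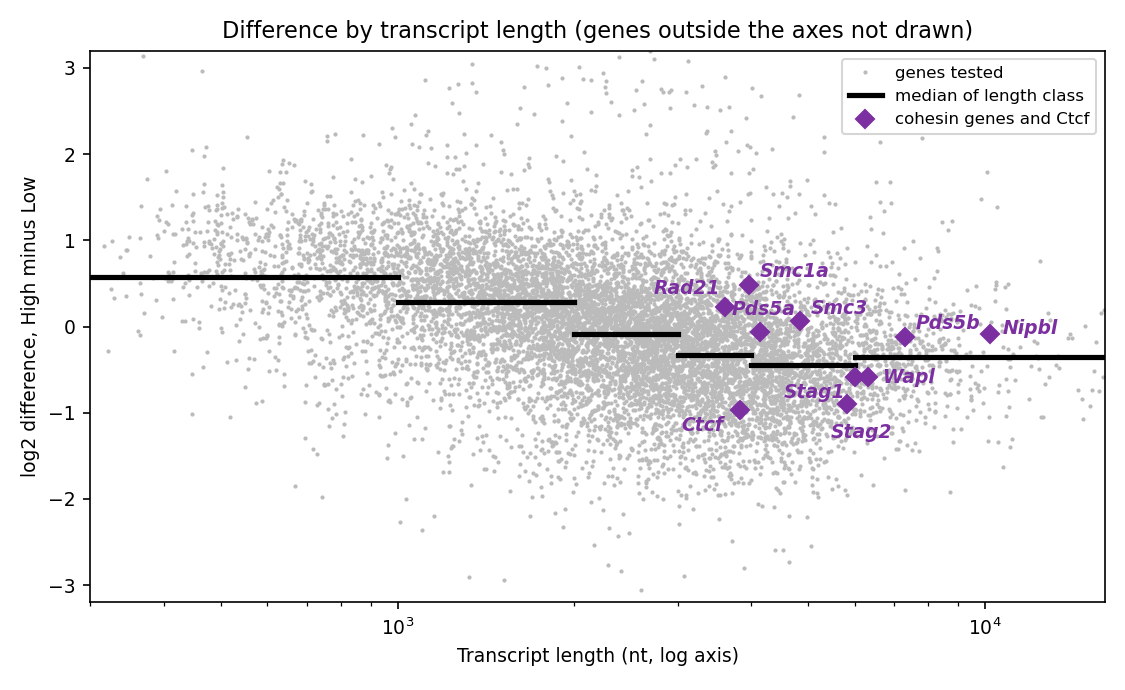
Log2 difference, FSC-A High minus FSC-A Low, of each gene tested against its transcript length in nt (log axis), with black bars for the median of each length class and diamonds for the 10 members. The class medians run from 0.57 under 1000 nt to -0.45 at 4000 to 6000 nt; Smc1a lies above and Ctcf below the bar of its class.

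The unfractionated libraries were deposited in another unit and were set beside the gated ones by order only. Reads recovered from them gave CPM per kilobase of the same transcript length. Smc1a was the highest member, as in FSC-A High, at 90.7, 74.1, 83.9 and 75.0 CPM per kb, followed by Smc3 at 78.9, 62.0, 66.0 and 50.8. Ctcf stood at 38.6, 35.2, 35.5 and 18.8 CPM per kb and Rad21 at 41.1, 28.3, 28.9 and 5.92. Library 4 was the lowest for each of the last 3, and far lower for Rad21. Stag2 averaged 15.0 ± 5.62, Nipbl 13.9 ± 6.23, Wapl 12.1 ± 4.36, Pds5a 8.71 ± 2.19, Stag1 7.64 ± 1.69 and Pds5b 7.27 ± 1.23 CPM per kb (SD, n = 4). Of neighbours in this order, the ranges did not overlap between Smc3 and Ctcf alone. Library 4 also stood apart across genes, with Spearman's rho of 0.865 to 0.873 to the other 3, which had 0.929 to 0.947 among themselves. Without it the mean of Rad21 was 32.8 ± 7.20 and that of Ctcf 36.5 ± 1.90 CPM per kb (SD, n = 3), against 26.0 ± 14.6 and 32.0 ± 8.98 with it (SD, n = 4).

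In the gated groups the order was Smc1a, Smc3, Rad21, Ctcf, Wapl, Nipbl, Stag1, Pds5b, Pds5a and Stag2 in FSC-A High, and Smc3, Smc1a, Ctcf, Wapl, Rad21, Stag1, Stag2, Nipbl, Pds5b and Pds5a in FSC-A Low. In FSC-A High the SMC pair was separated from the rest and no other neighbours were separated. In FSC-A Low both the SMC pair and Ctcf were separated from what came below them. Rad21 relative to Smc3 was 0.520, 0.457 and 0.437 in the unfractionated libraries 1 to 3 and 0.117 in library 4, whose value lies within the range of the gated libraries. Stag1 relative to Stag2 was below 1 in all 4 unfractionated libraries (0.321 to 0.746) and above 1 in 6 of the 7 gated ones. These ratios were made from files processed separately, so the gated and unfractionated values were not tested against each other.

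**Figure D4:**
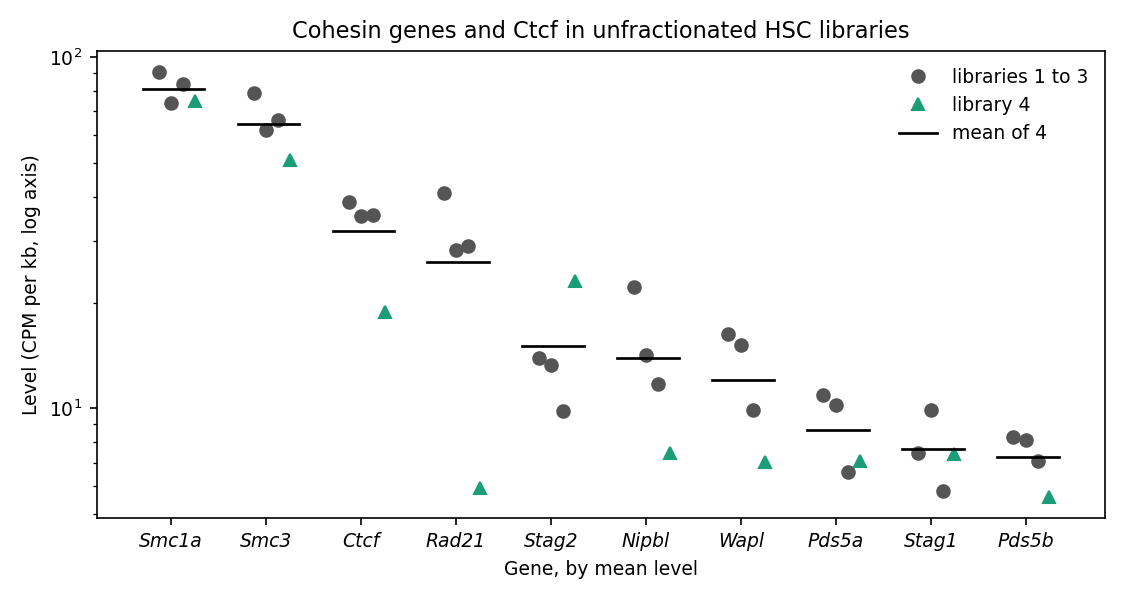
Level of each member in the 4 unfractionated libraries in CPM per kb (log axis), with points for libraries and bars for means. Smc1a and Smc3 lie above the rest, and library 4 is lowest for Rad21 (5.92) and Ctcf (18.8) and highest for Stag2 (23.0).

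Genes that act on cohesin were listed and counted beside the members. This list and the other related lists were chosen with earlier results of these data known. Their counts are therefore no independent comparison with all genes. Of 10 partners and regulators, 7 were higher in FSC-A High, 2 lower and 1 did not pass, beside 15.6% higher and 11.7% lower over all genes tested. The median log2 difference was 1.90, beside -0.04 over all genes tested. The largest differences on the log2(RPKM + 1) scale were in genes used when sister chromatids are tied and parted. Cdca5, or sororin, which protects cohesin on replicated DNA, stood at 87.6, 94.2, 94.7 and 119 RPKM in FSC-A High, against 16.1, 6.60 and 17.6 RPKM in FSC-A Low (log2 difference 2.89, SE 0.28, limma adjusted p = 1.94e-05). Sgo1, or shugoshin, which shields centromeric cohesin from removal in mitosis, stood at 20.9, 22.1, 23.6 and 20.5 RPKM in FSC-A High, against 2.83, 3.60 and 0.635 RPKM in FSC-A Low (log2 difference 2.89, adjusted p = 8.92e-05). The groups were far apart for both genes.

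Esco2, the acetyltransferase that locks cohesin during S phase, averaged 13.7 ± 2.22 RPKM in FSC-A High (SD, n = 4), against 1.55 ± 1.47 RPKM in FSC-A Low (SD, n = 3) (log2 difference 2.72, limma adjusted p = 4.81e-04). Espl1, or separase, which cuts Rad21, averaged 4.77 ± 1.68 RPKM in FSC-A High (SD, n = 4), against 0.281 ± 0.242 RPKM in FSC-A Low (SD, n = 3). Its log2 difference was 2.14 (adjusted p = 7.72e-04), and those of Sgo2a, the second shugoshin, and Haspin, the mitotic histone H3 kinase, were 2.02 and 1.78 (adjusted p = 9.68e-04 and 9.48e-04). On recovered reads edgeR gave Espl1 4.09 and Sgo2a 3.93 (adjusted p = 0.0185 and 0.0364), above its values for Sgo1 and for Cdca5 (2.88), so the order of these genes depends on the scale. Both values are ratios to FSC-A Low levels near 0. In FSC-A Low Espl1 stood at 0.0021, 0.404 and 0.437 RPKM, and Sgo2a at 0, 0.648 and 0.163 RPKM. These 6 rises held when any library was left out and with the length trend removed. The other calls of the list are named after their values were seen. Pttg1, or securin, the inhibitor of separase, was higher (log2 difference 0.97, adjusted p = 0.00362; 740 nt), but not with the length trend removed (0.34, adjusted p = 0.277).

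The partners that were lower were Esco1 and Mau2. Esco1, the acetyltransferase that acts through the cell cycle, stood at 6.58, 3.45, 3.18 and 2.85 RPKM in FSC-A High, against 10.9, 8.86 and 7.62 RPKM in FSC-A Low (log2 difference -1.06, limma adjusted p = 0.0277; 4540 nt). Mau2, the partner of Nipbl in the loader, stood at 14.0, 15.2, 12.1 and 11.7 RPKM in FSC-A High, against 25.1, 23.1 and 17.6 RPKM in FSC-A Low (log2 difference -0.68, adjusted p = 0.042; 5365 nt). Neither group pair overlapped, but neither gene passed with the length trend removed (-0.65, adjusted p = 0.184, and -0.25, adjusted p = 0.504). Leaving out libraries ended the call of Esco1 in 5 of 7 cases and that of Mau2 in 6 of 7. Hdac8, which deacetylates Smc3 after mitosis, stood at -0.35 (adjusted p = 0.496).

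Of 7 genes of replication-coupled cohesion, 4 were higher in FSC-A High, 1 was lower and 2 did not pass (median log2 difference 0.84), beside the same 15.6% higher and 11.7% lower of all genes. The clamp loader subunits Dscc1 and Chtf18 had log2 differences of 2.02 and 1.85, and the fork protection partners Timeless and Tipin 1.40 and 0.84 (limma adjusted p at most 0.00774). Chtf8, the small partner of Dscc1 and Chtf18 in the same clamp loader, was lower, at 45.6 ± 8.60 RPKM in FSC-A High (SD, n = 4), against 85.2 ± 19.8 RPKM in FSC-A Low (SD, n = 3) (log2 difference -0.88, adjusted p = 0.0077). The 5 calls held with the length trend removed, with Chtf8 at -0.66 (adjusted p = 0.0469). With a trend over GC content removed as well, Tipin stood at 0.24 (adjusted p = 0.228) and Chtf8 stood at -0.63 (adjusted p = 0.0559), and neither passed. Ddx11 and Wdhd1 stood at 0.19 and -0.11.

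The Smc5/6 complex is a relative of cohesin that acts in DNA repair. Of its 8 genes 2 were higher, 1 lower and 5 did not pass (median log2 difference 0.24), shares near the 15.6% higher and 11.7% lower of all genes. Nsmce1, its RING finger subunit, averaged 202 ± 31.9 RPKM in FSC-A High (SD, n = 4), against 75.1 ± 11.4 RPKM in FSC-A Low (SD, n = 3) (log2 difference 1.41, limma adjusted p = 6.88e-05), and Nsmce2, its SUMO ligase, had a log2 difference of 1.28 (adjusted p = 3.04e-04). Nsmce4a was lower (-0.59, adjusted p = 0.0491), a call lost without any of 6 of the 7 libraries, with edgeR (-0.63, adjusted p = 0.0539) and with TMM or median ratio scaling (adjusted p = 0.0516 and 0.0567). With the length trend removed it stood at -0.89 (adjusted p = 0.00924). The SMC arms Smc5 and Smc6 stood at -0.32 and 0.09, and neither passed.

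Of 7 factors linked to chromatin looping, 2 were lower in FSC-A High and 5 did not pass (median log2 difference -0.38), beside 11.7% lower and 15.6% higher of all genes. Yy1, a zinc finger protein found at enhancer and promoter contacts, stood at 11.6, 3.61, 6.30 and 2.46 RPKM in FSC-A High, against 14.9, 21.6 and 18.7 RPKM in FSC-A Low (log2 difference -1.64, SE 0.39, limma adjusted p = 0.00833; 2324 nt). Patz1, another zinc finger gene, stood at 19.8, 28.6, 16.9 and 18.5 RPKM in FSC-A High, against 48.6, 69.7 and 82.7 RPKM in FSC-A Low (log2 difference -1.63, adjusted p = 3.37e-04; 3100 nt). The groups did not overlap for either, and both calls held with the length trend removed (-1.57, adjusted p = 0.0165, and -1.37, adjusted p = 0.00223). Zfp143, Maz, Ldb1, Brd2 and Chd8 ran from -0.76 to 0.30 and did not pass.

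Of 5 meiotic paralogs, Rec8 alone had enough signal to be tested, at 6.12 ± 2.55 RPKM in FSC-A High (SD, n = 4), against 6.75 ± 1.04 RPKM in FSC-A Low (SD, n = 3) (log2 difference -0.19, limma adjusted p = 0.723). Rad21l and Ctcfl were listed at 0 in all 7 gated libraries, and Smc1b averaged 0.0834 RPKM in FSC-A High and was listed at 0 in all FSC-A Low libraries. Stag3 stood at 0.576, 1.01, 0.959 and 0.985 RPKM in FSC-A High, against 0, 1.77 and 0.119 RPKM in FSC-A Low.

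**Figure D5:**
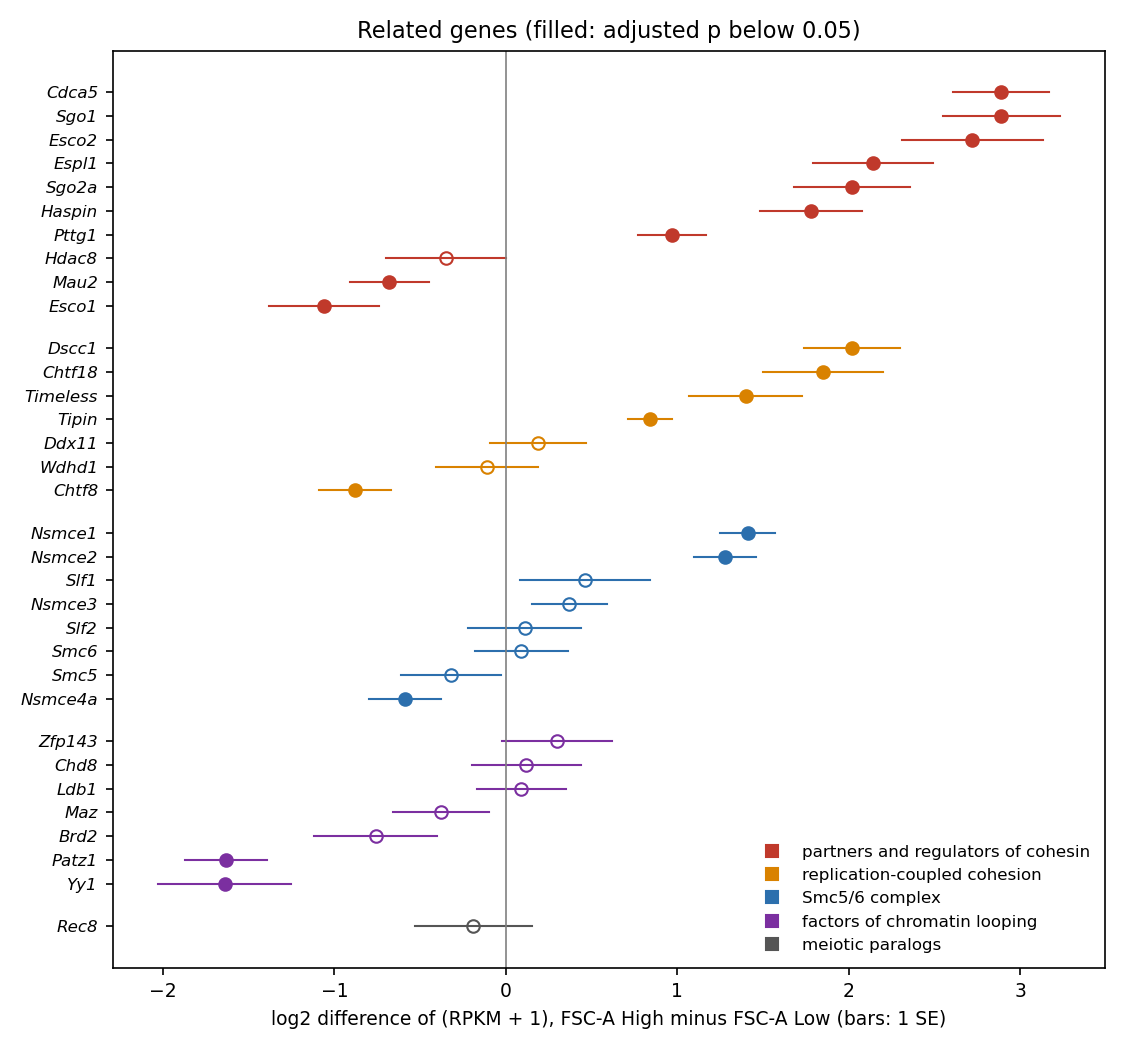
Log2 difference, FSC-A High minus FSC-A Low, of the tested genes of 5 related lists, with 1 SE and filled symbols at a limma adjusted p below 0.05. Most partners and regulators of cohesin lie to the right, with Cdca5 and Sgo1 furthest on this scale at 2.89, while Yy1 and Patz1 lie furthest left, at -1.64 and -1.63.

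The genes whose profile over the 7 gated libraries was most like that of Ctcf, among 6042 well expressed genes, were Srsf4, Slc1a5 and Eed, by root mean square differences of 0.153, 0.172 and 0.179 between centred log2 values. Slc1a5, an amino acid transporter gene, stood at 116, 112, 132 and 106 RPKM in FSC-A High, against 213, 237 and 227 RPKM in FSC-A Low. As with Ctcf, the third FSC-A High library was the nearest to FSC-A Low, a likeness that follows from how the gene was chosen. Eed encodes a core subunit of Polycomb repressive complex 2 and Srsf4 a splicing factor. Most like Smc1a were Capns1, Blmh and Ramac, at 0.0893, 0.0927 and 0.0933.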

How the data were processed

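RNA of 11 libraries was measured, and samples were grouped by the titles in the labels. Each deposited gated file lists 33984 RefSeq transcripts with a value each. No header names the unit, and it was inferred to be RPKM, that is, values the authors had divided by depth and by transcript length. Each deposited unfractionated file holds, per symbol, a signal that behaves as reads divided by a size factor. STAR, DESeq2 and mm10 are named in the submitters' processing notes, with neither versions nor roles.

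The read total and the transcript lengths behind the RPKM values were recovered as the numbers that turn all values of a transcript into whole reads. Of gated transcripts with a recovered length 99.8%, and of unfractionated values 100%, came out within 0.01 of a whole number. The search for lengths asked for nearly this, so the gated share is no check of them. Among tested genes with a GENCODE M21 length, 76.2% of recovered lengths lay within 10% of it. Reads per member and library ran from 88 to 17386. Lengths given here are these recovered ones. Per gene, the transcript of highest mean over the 7 gated libraries was used.

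The gated groups were fitted with limma 3.58.1 (R 4.3.3; lmFit, eBayes with trend) on log2(RPKM + 1) without other terms, over the 10619 genes that reached 1 RPKM in 3 or more libraries. Calls were made under a Benjamini-Hochberg adjusted p of 0.05. The quasi-likelihood test of edgeR 4.0.16 on the recovered reads was added after the data were seen, and called 2574 genes. The limma and edgeR steps were tested on simulated data. For the 3 ratios, exact permutation tests were two-sided. All 10 members were named; of each related list all called genes, or the 6 with the smallest p where more than 6 were called; and for the 2 members with the smallest p the 3 most alike genes with a mean log2(RPKM + 1) of at least 3. The members and lists were chosen with earlier results of these data known. GC content came from GENCODE M21 transcripts, and promoters and gene coordinates from RefSeq tables of GRCm38.p6, the assembly that mm10 denotes. The alternatives were other scalings, pseudocounts of 0.5 and 5, a filter at 5 RPKM and none at all, the sum over transcripts and the longest transcript, removal of trends over length, GC content or expression level, the replicate number as a block, a threshold of 0.01 and each library left out. Same-numbered gated libraries did not deviate together, so their numbers were not used as pairs. The result of a single erythroid marker is not reported here.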

Additional observations from a re-analysis of the deposited data

Results flagged for a closer look

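Stag1 stood at 3.17 RPKM in the first FSC-A High library, beside 2.06, 1.99 and 1.93 RPKM in the other 3, a gap to the nearest that exceeds Dixon's 95% critical value for a group of 4. The 20 groups of values tested in this way were those of FSC-A High and of the unfractionated libraries. The FSC-A Low values were not tested in this way. Of the 20 groups 1 was singled out, and chance singles out about 1 in 20. Even so the first FSC-A High library lay below all FSC-A Low libraries for Stag1 (3.84 to 4.02 RPKM). Without it the log2 difference of Stag1 was -0.71, against -0.59 with it.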

How the results depend on the processing

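The number of libraries, 4 against 3, limits the precision: 6 of the 10 had 95% intervals of the log2 difference within -1 to 1, while Pds5a rested on as few as 88 reads. The count of members called lower (1 as deposited) was 2 with scaling to the library total and with edgeR, and 0 with the length trend, the length and GC trend or the expression level trend removed, with the replicate block, with that block and the length and GC trend removed together, and at an adjusted p of 0.01. The count called higher (0 as deposited) was 1 with the length trend, the length and GC trend, or these and the block, the member being Smc1a each time. Leaving out libraries gave 0 to 1 members lower and 0 higher. Over all genes, 1245 lower and 1657 higher as deposited became 2272 and 978 with the library total, 780 and 1046 without the length trend, 755 and 968 without the length and GC trend, 540 and 697 with the block as well, and 545 and 1064 at 0.01; leaving out libraries gave 868 to 1166 lower and 1313 to 1639 higher.

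Pairing libraries by number was checked by the correlation of their deviations, -0.03, 0.06 and 0.00 for numbers 1, 2 and 3. The replicate block gave Ctcf -0.87 (adjusted p = 0.0859), Stag1 over Stag2 0.32, Pds5a over Pds5b 0.10 and Nipbl over Wapl 0.62, with 971 genes lower and 1460 higher. The filter at 5 RPKM left 6 members untested. Among related genes, Cdca5, Sgo1, Esco2, Espl1, Haspin, Sgo2a, Dscc1, Chtf18, Timeless, Nsmce1 and Patz1 passed under every alternative in which they were tested. Yy1 did not pass without a filter (adjusted p = 0.0613), and neither Yy1 nor Nsmce2 with the block and the length and GC trend removed.

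Small differences changed sign. Smc3 was -0.01 with upper quartile scaling, -0.23 with the library total and -0.10 without the level trend, and Rad21 -0.03 with the library total. Without the length trend, the length and GC trend, or the level trend, and with the block and the length and GC trend, Nipbl was 0.19, 0.09, 0.16 and 0.13, Pds5a 0.33, 0.24, 0.15 and 0.27, and Pds5b 0.28, 0.17, 0.12 and 0.17. Leaving out libraries gave -0.18 to 0.06 for Nipbl, -0.58 to 0.34 for Pds5a, -0.27 to 0.09 for Pds5b, -0.02 to 0.71 for Stag1 over Stag2, -0.67 to 0.61 for Pds5a over Pds5b and 0.32 to 0.68 for Nipbl over Wapl. With a pseudocount of 5, Pds5a over Pds5b was -0.01. None of the differences of genes passed a test, and the tests of ratios could not pass. The cause of the changes was not tested.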
